A study of Mus musculus with 16 samples.

Results

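The genes described here encode the α chains of collagens in the mouse thyroid gland. They are the 44 rows of the gene count table whose symbol has the form of a collagen chain gene, *Col* followed by a type number, the letter a and a chain number, out of 25611 rows in all. RNA-Seq was performed on thyroid glands of 16 mice, 4 in each of 4 groups, that were weaned at 3 weeks of age. The study states that its transcriptome data come from females. WT(ND) mice were wild type and received a normal diet (ND, NIH-31). WT(LID) mice were wild type and received a low-iodine diet (LID, TD.95125) for 6 days, a diet that raises circulating thyroid-stimulating hormone (TSH). The other groups, *Glis3*-Pax8Cre(ND) and *Glis3*-Pax8Cre(LID), received these diets in the same way and carried a floxed allele of *Glis3* (tm2Amj), which encodes a Krüppel-like zinc finger transcription factor, together with a Cre recombinase inserted at *Pax8* (tm1.1(cre)Mbu). The strain label of all 4 groups is C57BL/6, while the label of the mutant genotype is B6;129, and the age is given as 1 month in the labels and 4 weeks in the methods of the study. Cre from the *Pax8* locus deletes exon 5 of *Glis3* in the cells that express *Pax8*, which in the thyroid are the follicular cells, so that stromal and vascular cells of the gland keep the gene. No group carried Cre without the floxed allele. The mutant groups are abbreviated as KO(ND) and KO(LID).

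Collagens are secreted or membrane-bound proteins in which 3 chains wind into a triple helix. Fibrillar collagens form the tensile fibers of the interstitial matrix, network-forming type IV collagen makes the sheet of the basement membrane on which follicular epithelium and endothelium rest, and type VI collagen forms beaded microfibrils between basement membranes and interstitial fibers. FACITs (fibril-associated collagens with interrupted triple helices) decorate fibrils, transmembrane collagens sit in the plasma membrane and can be shed, and multiplexins are basement membrane-associated collagens whose C-terminal pieces, such as endostatin, are known as inhibitors of angiogenesis. In the thyroid, each follicle is wrapped in a basement membrane and a capillary network, and fibroblasts, pericytes, smooth muscle cells, endothelial cells and the follicular cells themselves can all be sources of collagen mRNA.

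The libraries held between 13892352 (mutant mouse 1 on the ND) and 461077969 counts (wild-type mouse 4 on the ND). Levels are given as CPM, the count of a gene scaled to a common library total with the TMM method, and levels of different genes are compared only as CPM per kb of exon. Where no read was counted, 3 counts remain possible, which is 0.00674 CPM in the deepest and 0.188 CPM in the shallowest library, for counting error only. Of the 44 collagen genes, 43 passed the filter on low counts and were tested. *Col2a1*, the chain of cartilage fibrils, was not tested. Differences are log2 fold changes with their SE from the quasi-likelihood test of edgeR on 16630 genes, with p-values adjusted by Benjamini-Hochberg over all of them, and a gene is said to have risen, fallen or changed where the adjusted p was under 0.05. The labels do not say whether the mice came from separate litters, so p-values measure the spread between these mice. *Glis3* itself was at 45.2 to 85.8 CPM in WT(ND), 85.8 to 105 CPM in KO(ND), 125 to 174 CPM in WT(LID) and 119 to 204 CPM in KO(LID). A count over the whole gene can include transcripts that lack exon 5, so it does not check the genotype labels. The follicular markers were present in every mouse, and *Tg* alone took 7.87% to 29.3% of the counts. One mouse stands apart for this gene family. KO(LID) mouse 1 had 350 counts of *Col2a1* (4.53 CPM, against at most 0.165 CPM in the other 15 mice) and 719 counts of *Col10a1* (9.32 CPM, against at most 0.321 CPM), and the results that rest on it are given with and without it.

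The 44 collagen genes together reached 3176 ± 71.4 CPM in the 4 WT(ND) mice (mean ± SD), 2957 ± 590.2 CPM in the 4 KO(ND) mice, 9049 ± 561 CPM in the 4 WT(LID) mice and 4569 ± 633 CPM in the 4 KO(LID) mice. The 4 WT(LID) mice, at 8310 to 9659 CPM, were all above the 12 others, whose highest mouse was KO(LID) mouse 3 at 5242 CPM. Of the 43 genes tested, 22 rose and 7 fell in WT(LID) against WT(ND), where 20.9% and 20.8% of all genes tested rose and fell, and the median log2 fold change was 0.55 for collagen genes and -0.028 for all genes. In KO(LID) against WT(LID), 7 were higher and 19 lower, against 14.9% and 15.4% of all genes, with a median of -0.63 for collagen genes and 0.012 for all genes. The share that was higher was near that of all genes. Without KO(LID) mouse 1, the higher calls of *Col9a2* (adjusted p = 0.0784) and *Col10a1* (adjusted p = 0.832) were lost. In that fit, the lower call of *Col5a3* was also lost (adjusted p = 0.0621), and *Col11a1* was called lower (adjusted p = 7.19e-04). On the ND, 7 were higher and 7 lower in KO mice than in WT mice, against 10.3% and 9.25% of all genes, with a median of -0.24 against 0.021. Of the 7 lower calls on the ND, 4 (*Col1a1*, *Col11a1*, *Col20a1* and *Col27a1*) had an adjusted p between 0.0443 and 0.0498, and between 3 and 8 were made when 1 mouse was left out. In KO(LID) against KO(ND), 16 rose and 3 fell, against 13.1% and 12.3% of all genes, with a median of 0.34 against -0.033. Without KO(LID) mouse 1, the rises of *Col5a2*, *Col6a1* and *Col10a1* and the fall of *Col9a1* were lost (adjusted p of 0.0513 to 0.627). *Col11a1* fell in that fit (adjusted p = 0.0213). The interaction of genotype and diet, the response to LID in KO minus that in WT mice, was positive for 4 and negative for 11, against 4.43% and 7.41% of all genes, with a median of -0.59 against -0.012. These comparisons share their groups, so their counts are not independent of each other. In whole glands, fewer cells of a type and less RNA per cell cannot be told apart.

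**Figure D1:**
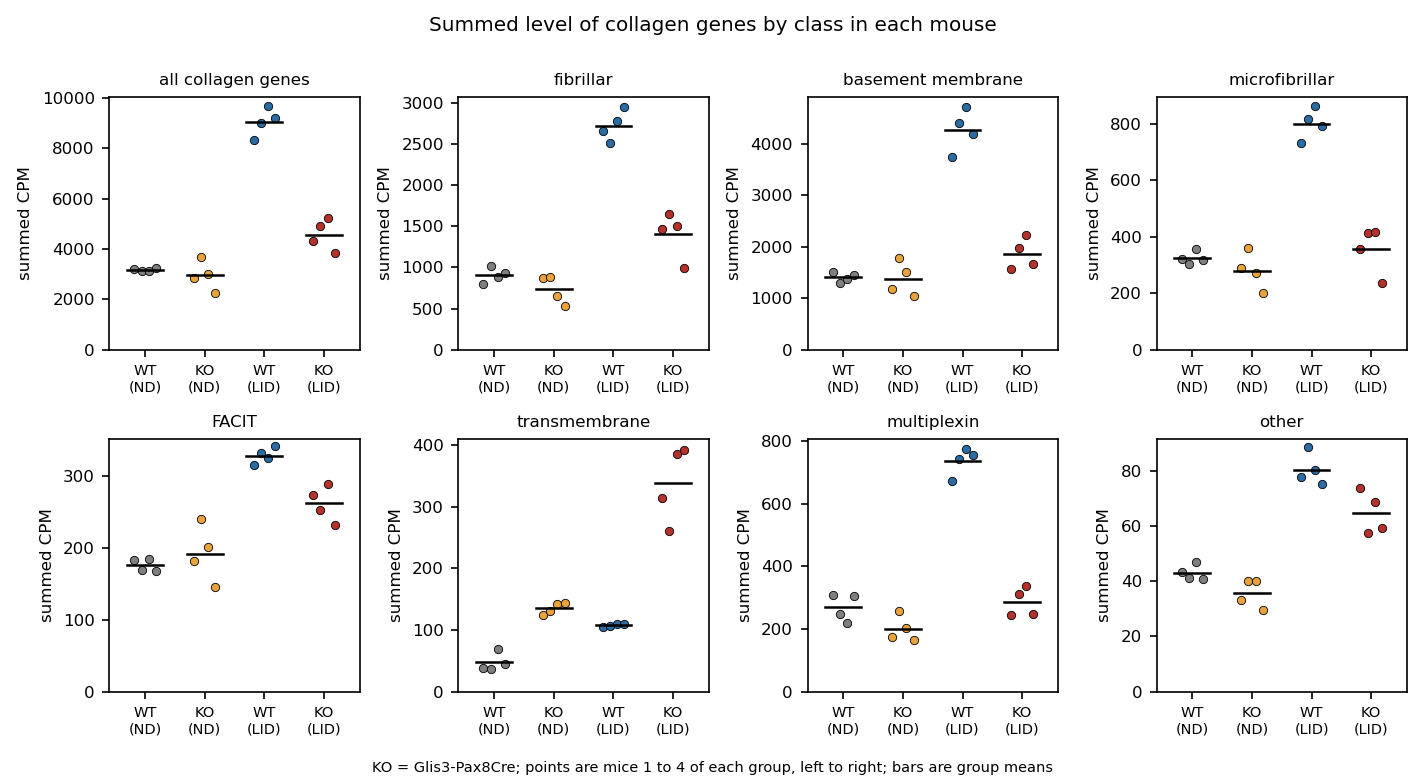
Summed CPM of all 44 collagen genes and of each class (vertical axes, linear from 0) in each of the 16 mice, by group. Points are mice, bars are group means. The 4 WT(LID) mice are above all other mice for fibrillar, basement membrane, microfibrillar, FACIT, multiplexin and other collagens, whereas the transmembrane class is highest in KO(LID) mice (261 to 392 CPM).

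The classes differed in which of these groups stood out. The fibrillar sum was 908 ± 87.0 CPM in the WT(ND) mice (SD, n = 4 here and for each class), 735 ± 176 CPM in the KO(ND) mice, 2725 ± 187 CPM in the WT(LID) mice and 1402 ± 286 CPM in the KO(LID) mice. The basement membrane sum was 1407 ± 95.2 CPM, 1379 ± 329 CPM, 4270 ± 414 CPM and 1862 ± 302 CPM in the same order. The microfibrillar sum followed with 324 ± 22.2 CPM, 279.9 ± 64.7 CPM, 800.5 ± 53.4 CPM and 355 ± 84.8 CPM. In these 3 classes, KO(LID) mice were far below WT(LID) mice without overlap. The multiplexin sum was 269.97 ± 43.9 CPM, 200.9 ± 41.4 CPM, 738 ± 45.5 CPM and 285 ± 46.6 CPM. The FACIT sum was 176 ± 9.19 CPM, 192 ± 39.4 CPM, 328 ± 11.3 CPM and 261 ± 25.0 CPM, a smaller gap between the LID groups. The transmembrane sum was 47.5 ± 15.3 CPM, 135 ± 9.14 CPM, 108 ± 1.99 CPM and 338 ± 62.2 CPM, and in this class alone KO mice were above WT mice on both diets. This order rests on *Col25a1*, without which the transmembrane sum was 33.6 ± 4.10 CPM, 41.8 ± 3.64 CPM, 87.4 ± 3.21 CPM and 45.3 ± 2.22 CPM, with WT(LID) mice above KO(LID) mice. Counted per kb of exon, basement membrane collagens made up 46.1% ± 2.03 (SD, n = 4) of collagen mRNA in WT(ND), 48.3% ± 3.35 in KO(ND), 50.1% ± 2.04 in WT(LID) and 43.6% ± 3.22 in KO(LID).

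**Figure D2:**
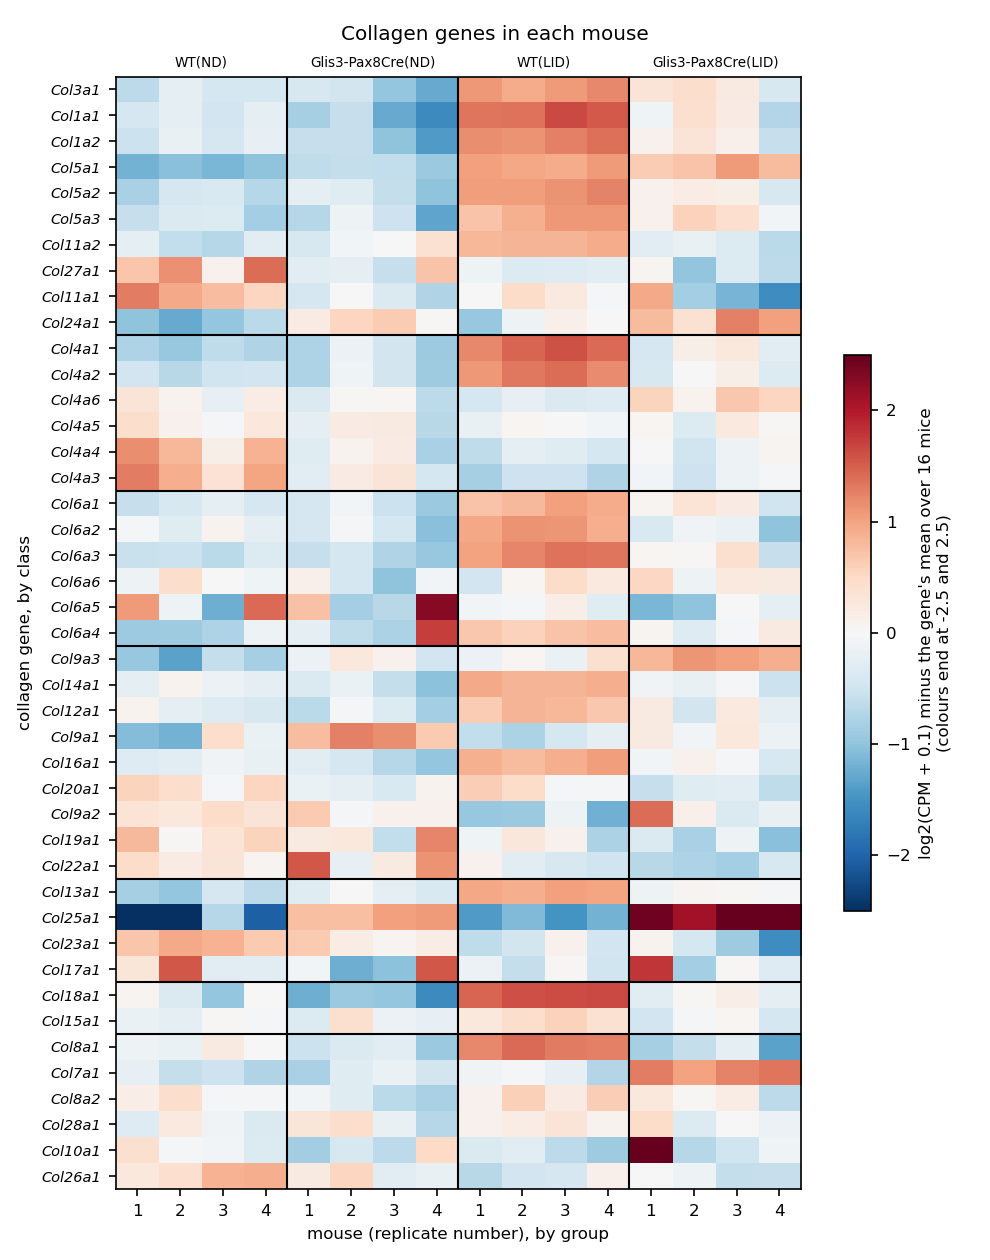
Heat map of the 43 tested collagen genes (rows, ordered by class and, within it, by CPM per kb) in the 16 mice (columns, by group and replicate number); colour is log2(CPM + 0.1) minus the mean of the gene over the mice, with the scale ending at -2.5 and 2.5. Most rows of the fibrillar, microfibrillar and multiplexin classes are red in the 4 WT(LID) columns, *Col25a1* is red in all KO columns, and *Col10a1* is deep red in KO(LID) mouse 1 alone.

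Among the 10 fibrillar genes tested, 8 rose and 1 fell in WT(LID) against WT(ND), with a median log2 fold change of 1.49, and 1 was higher and 6 were lower in KO(LID) than in WT(LID), with a median of -0.78. On the ND, 3 were higher and 3 lower in KO mice, and 6 rose in KO mice on the LID. The shares of all genes called in each comparison, given above, are the background of these and the other class counts. With 2 to 10 genes tested in a class, a single call can lie near such a share. *Col3a1*, the chain of the reticular type III fibrils and the fibrillar gene with the highest level (71.7 CPM per kb over the 16 mice), was at 391, 518, 455 and 456 CPM in the WT(ND) mice and at 468, 447, 317 and 258 CPM in the KO(ND) mice. On the LID, *Col3a1* was at 1309.8, 1165, 1279.7 and 1413 CPM in the WT mice and at 770.0, 835, 721 and 466 CPM in the KO mice. The WT(LID) mice were above all others, and KO(LID) mouse 4 lay within the range of the ND mice. *Col3a1* rose in WT mice on the LID (1.51 ± 0.19 (SE), adjusted p = 2.25e-05) and was lower in KO(LID) than in WT(LID) (log2 fold change -0.89 ± 0.19 (SE), adjusted p = 0.00236). *Col1a1*, which encodes the chain present in 2 copies in type I collagen, was at 125, 143, 121 and 142 CPM in the WT(ND) mice and at 94.5, 113, 70.6 and 56.0 CPM in the KO(ND) mice. On the LID, *Col1a1* was at 426, 432, 525 and 489 CPM in the WT mice and at 156, 221, 193 and 101 CPM in the KO mice. All 4 KO(LID) mice were below all 4 WT(LID) mice, and the log2 fold change was -1.48 ± 0.22 (SE), adjusted p = 1.49e-04, which is 2.79-fold lower. The LID raised *Col1a1* in WT mice by a log2 fold change of 1.82 ± 0.23 (SE), adjusted p = 1.79e-05. It also rose in KO mice (1.01 ± 0.22 (SE), adjusted p = 0.00434), although KO(LID) mouse 4 lay within the range of the KO(ND) mice. Its partner *Col1a2*, at 463 to 551 CPM in WT(LID) and 143 to 269 CPM in KO(LID), had a log2 fold change of -1.19 ± 0.19 (SE), adjusted p = 2.59e-04. The interaction was not significant for *Col3a1* (-0.60, adjusted p = 0.168), *Col1a1* (-0.81, adjusted p = 0.106) or *Col1a2* (-0.67, adjusted p = 0.126).

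Type V collagen nucleates type I fibrils and sets their diameter, and its 3 genes are described one by one. *Col5a1* was at 43.6, 47.9, 44.8 and 49.2 CPM in the WT(ND) mice and at 64.0, 65.9, 64.9 and 52.5 CPM in the KO(ND) mice. On the LID, *Col5a1* was at 202, 194, 189.6 and 208 CPM in the WT mice and at 155, 163, 207 and 171 CPM in the KO mice. Both LID groups were above both ND groups, and the LID groups overlapped through KO(LID) mouse 3. *Col5a1* rose with the LID in WT mice (2.10 ± 0.098 (SE), adjusted p = 2.55e-09) and in KO mice (1.49 ± 0.097 (SE), adjusted p = 2.97e-07), and its difference between the LID groups was not significant (-0.19 ± 0.094 (SE), adjusted p = 0.146). Without KO(LID) mouse 3, it was a log2 fold change of -0.29 with an adjusted p of 0.0244. *Col5a1* was higher in KO(ND) than in WT(ND) (0.41 ± 0.095 (SE), adjusted p = 0.00709), and its interaction was negative (-0.60 ± 0.13 (SE), adjusted p = 0.00819). *Col5a2*, which encodes the chain that pairs with 2 copies of the *Col5a1* product, was at 44.2, 57.9, 59.3 and 46.9 CPM in the WT(ND) mice and at 65.4, 62.6, 51.2 and 38.3 CPM in the KO(ND) mice. On the LID, *Col5a2* was at 159, 159, 168 and 181 CPM in the WT mice and at 83.2, 87.3, 85.3 and 58.8 CPM in the KO mice. Here the LID groups did not overlap, and *Col5a2* was lower in KO(LID) by 2.12-fold (log2 fold change -1.08 ± 0.16 (SE), adjusted p = 1.22e-04). It rose by a log2 fold change of 1.68 in WT and 0.53 in KO mice, with an interaction of -1.14 ± 0.23 (SE), adjusted p = 0.00401. The rise in KO mice was lost without KO(ND) mouse 3 or 4 or KO(LID) mouse 1, 2 or 3, with an adjusted p of at most 0.0678. *Col5a3*, the gene of the third chain, was at 63.4 to 82.7 CPM in WT(LID) and 36.9 to 58.1 CPM in KO(LID), a log2 fold change of -0.68 ± 0.21 (SE), adjusted p = 0.0224. This call was lost without WT(LID) mouse 3 or 4 or KO(LID) mouse 1 or 4, with an adjusted p of at most 0.0709.

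The promoter of *Col5a1* was the single one of 38 collagen promoters, covering 35 of the 44 genes, that held the 8 letters TGGGGGGT, the core of sites bound by GLIS proteins, in 300 bases around the gene start (250 before and 50 after, both strands, RefSeq, GRCm38.p6). The letters occurred in 1.53% of all 32851 promoters of that length. The 60 bases shown lie on the + strand at chr2:27886332-27886391, upstream of the *Col5a1* start at 27886425 and outside the transcribed gene, with the core in capitals, and are printed because of the course of *Col5a1* among the fibrillar genes.
*Col5a1* upstream: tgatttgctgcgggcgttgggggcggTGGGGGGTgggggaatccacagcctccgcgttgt
A match of letters is a description and not a site of binding. *Col5a2*, *Col1a1*, *Col2a1*, *Col4a3*, *Col9a3*, *Col12a1*, *Col14a1*, *Col22a1* and *Col26a1* had no promoter in the table used here.

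Type XI collagen, the other regulator of fibril diameter, is best known from cartilage. *Col11a2* was at 7.06, 5.47, 5.09 and 6.87 CPM in the WT(ND) mice and at 6.34, 8.01, 8.33 and 10.95 CPM in the KO(ND) mice. On the LID, *Col11a2* was at 15.1, 15.2, 15.3 and 16.1 CPM in the WT mice and at 6.88, 7.43, 6.62 and 5.27 CPM in the KO mice. The 4 WT(LID) mice were above all 12 others. *Col11a2* rose in WT mice on the LID (1.33 ± 0.16 (SE), adjusted p = 9.98e-06) but did not pass the test in KO mice (-0.36 ± 0.16 (SE), adjusted p = 0.0988), and it was 2.36-fold lower in KO(LID) than in WT(LID) (log2 fold change -1.24 ± 0.16 (SE), adjusted p = 3.02e-05). Its interaction was -1.70 ± 0.22 (SE), adjusted p = 1.57e-04. *Col11a1* was at 6.75, 5.37, 4.70 and 4.03 CPM in the WT(ND) mice and at 2.01, 2.70, 2.09 and 1.59 CPM in the KO(ND) mice. On the LID, *Col11a1* was at 2.74, 3.79, 3.24 and 2.62 CPM in the WT mice and at 5.38, 1.46, 1.16 and 0.861 CPM in the KO mice. WT(ND) mice were above KO(ND) mice without overlap, and KO(LID) mouse 1 was far above the 3 others of its group. The difference between the LID groups was not significant with all mice (-0.48 ± 0.43 (SE), adjusted p = 0.449). Without KO(LID) mouse 1 it was a log2 fold change of -1.41 with an adjusted p of 7.19e-04. On the ND, *Col11a1* was lower in KO mice (-1.31 ± 0.44 (SE), adjusted p = 0.0498) and *Col11a2* was higher (0.46 ± 0.16 (SE), adjusted p = 0.0497), both at the limit of the threshold. With 1 mouse of the 16 left out in turn, the adjusted p ranged from 0.00132 to 0.127 and from 0.0179 to 0.128, and these calls were lost in 13 and 12 of the 16 fits. For *Col11a1*, the value of 0.00132 was that without KO(LID) mouse 1 (log2 fold change -1.31). In that fit, *Col11a1* also fell with the LID in WT mice (-0.75, adjusted p = 0.0123) and in KO mice (-0.85, adjusted p = 0.0213).

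The minor fibrillar collagens of types XXIV and XXVII, which have shorter, invertebrate-like helices, were at low level. *Col24a1* was at 0.504, 0.411, 0.523 and 0.667 CPM in the WT(ND) mice and at 1.32, 1.66, 1.78 and 1.14 CPM in the KO(ND) mice. On the LID, *Col24a1* was at 0.534, 1.02, 1.24 and 1.12 CPM in the WT mice and at 2.01, 1.497, 2.81 and 2.39 CPM in the KO mice. KO mice were above WT mice on each diet without overlap, and the log2 fold change was 1.15 ± 0.27 (SE), adjusted p = 0.00398 on the LID and 1.48 ± 0.27 (SE), adjusted p = 0.00179 on the ND. *Col24a1* also rose in WT mice on the LID (0.88, adjusted p = 0.0162), but not without WT(LID) mouse 3 (adjusted p = 0.0522). *Col27a1* was at 7.13 to 17.6 CPM in WT(ND), 4.42 to 10.9 CPM in KO(ND), 5.19 to 6.06 CPM in WT(LID) and 3.29 to 6.93 CPM in KO(LID). With all 16 mice in the fit, it was the fibrillar gene that fell in WT mice on the LID (-1.19 ± 0.31 (SE), adjusted p = 0.00576). On the ND, *Col1a1* (-0.67, adjusted p = 0.0455) and *Col27a1* (-0.93, adjusted p = 0.0443) were lower in KO mice, calls that were lost in 13 and 12 of the 16 fits with 1 mouse left out, with adjusted p of up to 0.112 and 0.149.

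Of the 6 basement membrane genes, all encoding type IV collagen, 2 rose and 3 fell in WT(LID) against WT(ND), and 1 was higher and 2 were lower in KO(LID) than in WT(LID) (medians -0.35 and 0.17). On the ND, 2 were lower in KO mice, and 2 rose in KO mice on the LID. Of all genes, 14.9% were higher and 15.4% lower between the LID groups, so the 1 higher call is near the background. These genes lie in 3 head-to-head pairs, in which the genes are transcribed away from a shared promoter. *Col4a1* (chromosome 8 from 11198423 to 11312826 (- strand)) and *Col4a2* (chromosome 8 from 11312805 to 11449287 (+ strand)) encode the chains of the network common to all basement membranes, and their annotated starts overlap by 22 bases in mm10. *Col4a4* (chromosome 1 from 82450723 to 82586849 (- strand)) and *Col4a3* (chromosome 1 from 82586921 to 82722059 (+ strand)) are separated by 71 bases and encode chains of the specialised network best known from the kidney glomerulus, together with *Col4a5*. *Col4a6* (chromosome X from 141165403 to 141474076 (- strand)) and *Col4a5* (chromosome X from 141475419 to 141689235 (+ strand)) are 1342 bases apart. The short stretches between the starts are printed on the + strand for the first and second pair because their genes passed the same tests in the same direction with the LID in WT mice, with the GC box (GGGCGG) in capitals.
*Col4a1* and *Col4a2* overlap, chr8:11312805-11312826: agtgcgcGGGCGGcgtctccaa
*Col4a4* to *Col4a3* interval, chr1:82586850-82586920: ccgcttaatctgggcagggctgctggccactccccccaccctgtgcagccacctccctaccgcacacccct
A GC box on either strand was found in 35.7% of all promoter windows of 300 bases and in 23 of the 38 collagen windows. Neither stretch held the letters TATAAA of a TATA box, found in 13.6% of all windows of 300 bases. The stretches shown are far shorter than these windows, so the shares are not a like comparison.

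*Col4a1*, the collagen gene with the highest level (153 CPM per kb), was at 541, 482, 594 and 552 CPM in the WT(ND) mice and at 546, 837, 674 and 498 CPM in the KO(ND) mice. On the LID, *Col4a1* was at 2148, 2544, 2783 and 2474 CPM in the WT mice and at 695, 1034, 1110.2 and 775 CPM in the KO mice. The WT(LID) mice were all above the highest KO(LID) mouse. *Col4a1* rose in WT mice on the LID by 4.59-fold (log2 fold change 2.20 ± 0.18 (SE), adjusted p = 2.48e-07) and was 2.75-fold lower in KO(LID) than in WT(LID) (-1.46 ± 0.17 (SE), adjusted p = 1.60e-05). Its change in KO mice was small (0.50 ± 0.17 (SE), adjusted p = 0.0422) and was lost in 11 of the 16 fits with 1 mouse left out, with an adjusted p of up to 0.141. The interaction of *Col4a1* was -1.70 ± 0.24 (SE), adjusted p = 3.14e-04. *Col4a2* was at 457, 397, 456 and 457 CPM in the WT(ND) mice and at 375, 595, 468 and 345 CPM in the KO(ND) mice. On the LID, *Col4a2* was at 1357, 1585, 1675 and 1451 CPM in the WT mice and at 485, 647, 706 and 502 CPM in the KO mice. It followed *Col4a1* through the groups. Its log2 fold change was -1.38 ± 0.16 (SE), adjusted p = 1.56e-05 between the LID groups and 1.78 ± 0.16 (SE), adjusted p = 9.18e-07 with the LID in WT mice, with an interaction of -1.39 ± 0.23 (SE), adjusted p = 9.34e-04. On the ND, neither gene passed the test between genotypes (0.24, adjusted p = 0.352, and 0.014, adjusted p = 0.965).

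*Col4a3* and *Col4a4* fell where *Col4a1* and *Col4a2* rose, with the LID in WT mice. *Col4a3* was at 85.0, 66.3, 45.0 and 69.7 CPM in the WT(ND) mice and at 29.2, 40.2, 43.7 and 25.97 CPM in the KO(ND) mice. On the LID, *Col4a3* was at 19.8, 24.6, 24.4 and 20.9 CPM in the WT mice and at 33.5, 24.5, 32.3 and 34.1 CPM in the KO mice. WT(ND) mice were above the mice of the 3 other groups, and the WT(LID) mice had the lowest mean. *Col4a3* fell in WT mice on the LID (-1.57 ± 0.19 (SE), adjusted p = 1.61e-05) and was lower in KO(ND) than in WT(ND) (-0.93 ± 0.19 (SE), adjusted p = 0.0035). Between the LID groups, the values overlapped and the difference did not pass the test (0.47 ± 0.19 (SE), adjusted p = 0.0727), although it did with library size alone as scaling (0.62, adjusted p = 0.00775), with only the 8 mice of the comparison (adjusted p = 0.0156), without WT(ND) mouse 3 (adjusted p = 0.0389) and without KO(LID) mouse 2 (adjusted p = 0.0443). *Col4a4* was at 129, 101, 63.4 and 105 CPM in the WT(ND) mice and at 46.1, 61.0, 65.9 and 32.4 CPM in the KO(ND) mice. On the LID, *Col4a4* was at 36.9, 48.1, 46.5 and 42.0 CPM in the WT mice and at 57.4, 40.5, 52.5 and 59.7 CPM in the KO mice. WT(ND) mice were again highest, although WT(ND) mouse 3 lay within the range of the KO(ND) mice. *Col4a4* fell in WT mice on the LID (-1.20 ± 0.22 (SE), adjusted p = 6.09e-04), was lower in KO(ND) than in WT(ND) (-0.96 ± 0.22 (SE), adjusted p = 0.00844) and did not pass the test between the LID groups (0.28 ± 0.22 (SE), adjusted p = 0.387). The interactions of *Col4a3* (1.41 ± 0.27 (SE), adjusted p = 0.00318) and *Col4a4* (1.23 ± 0.31 (SE), adjusted p = 0.0192) were positive, opposite in sign to those of *Col4a1* and *Col4a2*. Within KO mice, neither *Col4a3* (-0.16, adjusted p = 0.558) nor *Col4a4* (0.031, adjusted p = 0.935) passed the test of the diet. Summed C cell markers, given with the other cell types, were also highest in the WT(ND) mice. Of these 3 genes, however, 1 was higher in KO(ND) than in WT(ND), and 1 rose with the LID in WT mice. Sums of fibroblast, adipocyte, thymocyte, parathyroid, Schwann and squamous epithelium markers had their highest medians in WT(ND) mice as well. The part of these cell types in these results was not tested.

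In the third pair, 1 of the genes passed tests and the other did not. *Col4a6*, whose product joins the *Col4a5* chain in basement membranes of smooth muscle and some epithelia, was at 182, 154, 126 and 164 CPM in the WT(ND) mice and at 113, 148, 149.7 and 92.4 CPM in the KO(ND) mice. On the LID, *Col4a6* was at 107, 126, 113 and 116 CPM in the WT mice and at 212, 155, 232 and 211 CPM in the KO mice. KO(LID) mice were above WT(LID) mice without overlap. *Col4a6* was higher in KO(LID) than in WT(LID) (0.81 ± 0.16 (SE), adjusted p = 0.00113), rose with the LID in KO mice (0.68 ± 0.16 (SE), adjusted p = 0.00573) and had a positive interaction (1.12 ± 0.22 (SE), adjusted p = 0.00414). Its fall in WT mice on the LID (-0.44, adjusted p = 0.0358) was lost without WT(ND) mouse 1, 2 or 4 or WT(LID) mouse 1, 3 or 4, with an adjusted p of up to 0.115, and when the replicate number was added to the fit as a block (adjusted p = 0.0579). *Col4a5*, the gene on the other side of the same interval, was at 84.7 to 119 CPM in WT(ND), 53.6 to 102 CPM in KO(ND), 76.5 to 89.9 CPM in WT(LID) and 68.9 to 104 CPM in KO(LID). All 4 ranges overlapped, and *Col4a5* passed the test in none of the 5 comparisons, with 0.066 ± 0.18 (SE), adjusted p = 0.827 between the LID groups. With library size alone as scaling, it was called lower in WT(LID) than in WT(ND) (-0.42, adjusted p = 0.0296).

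**Figure D3:**
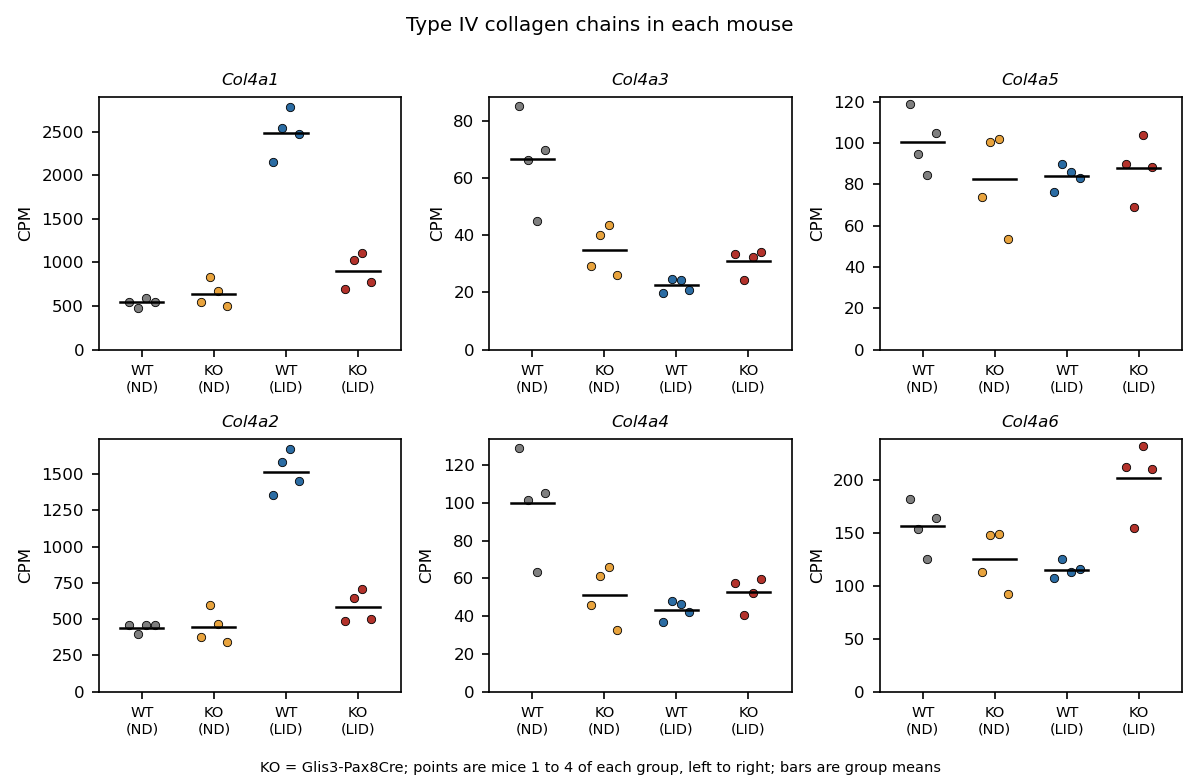
CPM (vertical axes, linear from 0) of the 6 type IV collagen genes in each mouse, arranged in columns by head-to-head pair. *Col4a1* and *Col4a2* are highest in the 4 WT(LID) mice, *Col4a3* and *Col4a4* have their highest means in WT(ND) mice and their lowest in WT(LID) mice, and *Col4a6* but not *Col4a5* is highest in KO(LID) mice.

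Of the 6 microfibrillar genes of type VI collagen, 4 rose and none fell in WT(LID) against WT(ND), and 3 were lower and none higher in KO(LID) than in WT(LID) (medians 1.21 and -0.90). *Col6a1*, *Col6a2* and *Col6a3* encode the 3 chains of the classical type VI monomer. *Col6a1* was at 77.8, 88.1, 99.8 and 87.1 CPM in the WT(ND) mice and at 86.9, 111, 80.5 and 60.8 CPM in the KO(ND) mice. On the LID, *Col6a1* was at 192, 205, 236 and 222 CPM in the WT mice and at 122, 147, 134 and 82.4 CPM in the KO mice. KO(LID) mice were below WT(LID) mice (-0.82 ± 0.18 (SE), adjusted p = 0.00236), and the rise with the LID in WT mice was 1.28 ± 0.18 (SE), adjusted p = 4.36e-05. Its rise in KO mice (0.52, adjusted p = 0.0404) was lost in 12 of the 16 fits with 1 mouse left out, with an adjusted p of up to 0.120. *Col6a2* was at 186, 154, 202 and 164 CPM in the WT(ND) mice and at 143, 185, 141 and 93.0 CPM in the KO(ND) mice. On the LID, *Col6a2* was at 372, 413, 408 and 357 CPM in the WT mice and at 146, 179.6, 169 and 94.5 CPM in the KO mice. It was 2.63-fold lower in KO(LID) than in WT(LID) (-1.40 ± 0.20 (SE), adjusted p = 8.43e-05), and in KO mice it did not pass the test of the diet (0.066, adjusted p = 0.833). *Col6a3* was at 52.0 to 65.5 CPM in WT(ND), 43.4 to 61.9 CPM in KO(ND), 168 to 215 CPM in WT(LID) and 55.8 to 111 CPM in KO(LID), and was lower in KO(LID) than in WT(LID) (log2 fold change -1.22 ± 0.17 (SE), adjusted p = 5.51e-05). The interaction was negative for *Col6a2* (-1.07 ± 0.28 (SE), adjusted p = 0.0199) and *Col6a3* (-1.09 ± 0.23 (SE), adjusted p = 0.0068) and missed the threshold for *Col6a1* (-0.76 ± 0.25 (SE), adjusted p = 0.0591). None of the 6 type VI genes passed the test between genotypes on the ND. *Col6a4*, *Col6a5* and *Col6a6*, which encode alternative long chains, did not exceed 1.84 CPM in any mouse. Of these, *Col6a4* rose in WT mice on the LID (2.002, adjusted p = 0.0248), but not without WT(ND) mouse 1, 2 or 3 (adjusted p of at most 0.0607), and the log2 fold change was 2.76 without WT(ND) mouse 4.

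Of the 9 FACIT genes tested, 4 rose and 1 fell in WT(LID) against WT(ND), and 2 were higher and 4 lower in KO(LID) than in WT(LID) (medians -0.12 and -0.73). With the genes required to hold at least 10 counts in every mouse, the median with the LID in WT mice was 0.95. On the ND, 2 were higher and 1 lower in KO mice, against 10.3% and 9.25% of all genes. The 1 lower call is near the background. In KO mice on the LID, 2 rose and 2 fell, against 13.1% and 12.3% of all genes. *Col14a1*, whose product undulin bridges fibrils in mature connective tissue, was at 40.1, 50.2, 42.9 and 40.2 CPM in the WT(ND) mice and at 36.8, 42.2, 31.5 and 23.4 CPM in the KO(ND) mice. On the LID, *Col14a1* was at 92.1, 86.2, 85.5 and 89.6 CPM in the WT mice and at 44.6, 41.6, 45.8 and 32.6 CPM in the KO mice. WT(LID) mice were above all others, and *Col14a1* was lower in KO(LID) than in WT(LID) (-1.10 ± 0.15 (SE), adjusted p = 4.90e-05), with a rise of 1.03 ± 0.15 (SE), adjusted p = 6.18e-05 in WT mice. *Col16a1*, expressed by fibroblasts and smooth muscle, was at 13.2, 13.6, 15.5 and 14.5 CPM in the WT(ND) mice and at 13.7, 12.3, 9.91 and 8.37 CPM in the KO(ND) mice. On the LID, *Col16a1* was at 30.5, 28.5, 30.9 and 34.0 CPM in the WT mice and at 15.7, 17.6, 15.8 and 12.4 CPM in the KO mice. WT(LID) mice were again above all others. The log2 fold change of *Col16a1* was -1.01 ± 0.14 (SE), adjusted p = 5.42e-05 between the LID groups and 1.13 ± 0.14 (SE), adjusted p = 1.43e-05 with the diet in WT mice. *Col12a1*, the FACIT of dense connective tissue under load, was at 127 to 147 CPM in WT(LID) and 58.9 to 96.4 CPM in KO(LID), a log2 fold change of -0.78 ± 0.18 (SE), adjusted p = 0.00431. *Col20a1* was at 3.59 to 5.81 CPM in WT(LID) and 2.37 to 3.09 CPM in KO(LID) and was lower in the latter (-0.73 ± 0.19 (SE), adjusted p = 0.00804). On the ND, it was also lower in KO mice (-0.57, adjusted p = 0.0454), a call lost in 10 of the 16 fits with 1 mouse left out, with an adjusted p of up to 0.121. *Col22a1*, the FACIT of tissue junctions, did not exceed 0.565 CPM and fell in KO mice on the LID (-2.68, adjusted p = 0.00306), and *Col19a1* passed no test. The interactions of *Col14a1* (-0.73, adjusted p = 0.0329) and *Col16a1* (-0.65, adjusted p = 0.0412) were lost in 8 and 11 of the 16 fits with 1 mouse left out, with adjusted p of up to 0.0660 and 0.0891.

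Type IX collagen coats type II fibrils in cartilage, and none of its 3 genes was called lower in KO(LID) than in WT(LID). *Col9a3* was at 27.7, 21.0, 35.2 and 29.9 CPM in the WT(ND) mice and at 48.0, 64.3, 57.7 and 38.1 CPM in the KO(ND) mice. On the LID, *Col9a3* was at 48.1, 55.4, 47.6 and 70.5 CPM in the WT mice and at 94.7, 116, 109 and 101 CPM in the KO mice. It was the FACIT gene with the highest level (15.6 CPM per kb). KO mice were above WT mice on each diet without overlap, with log2 fold changes of 0.92 ± 0.17 (SE), adjusted p = 8.99e-04 on the LID and 0.87 ± 0.18 (SE), adjusted p = 0.00308 on the ND. The LID raised *Col9a3* in WT mice (0.96 ± 0.18) and KO mice (1.01 ± 0.18), and the interaction was 0.048 ± 0.25 (SE), adjusted p = 0.928. *Col9a1* was at 7.06, 6.63, 20.5 and 13.6 CPM in the WT(ND) mice and at 25.97, 36.3, 34.1 and 23.9 CPM in the KO(ND) mice. On the LID, *Col9a1* was at 9.83, 8.75, 11.2 and 12.7 CPM in the WT mice and at 17.7, 14.5, 18.1 and 13.8 CPM in the KO mice. It was highest in KO(ND) mice, which did not overlap WT(ND) mice (1.33 ± 0.29 (SE), adjusted p = 0.00615). *Col9a1* fell with the LID in KO mice (-0.91 ± 0.29 (SE), adjusted p = 0.0337), a call that was lost without KO(ND) mouse 2 or 3 or any of the KO(LID) mice, with an adjusted p of up to 0.0885. *Col9a2* was at 0.880 to 1.02 CPM in WT(ND), 0.702 to 1.19 CPM in KO(ND) and 0.255 to 0.647 CPM in WT(LID), and at 2.05, 0.797, 0.532 and 0.615 CPM in KO(LID). It was higher in KO(LID) than in WT(LID) (1.37, adjusted p = 0.0155), but without mouse 1 of the former the value was 0.74 with an adjusted p of 0.0784, and the difference was also no longer called without WT(LID) mouse 4 (adjusted p = 0.0518). The fall of *Col9a2* in WT mice on the LID (-1.28, adjusted p = 0.016) was lost without WT(LID) mouse 4 as well (adjusted p = 0.0536).

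Of the 4 transmembrane genes, 1 was higher and 1 lower in KO(LID) than in WT(LID), 2 were higher on the ND, and 1 rose and 1 fell with the LID in each genotype. Of all genes, 14.9% were higher and 15.4% lower between the LID groups, and 10.3% were higher on the ND. *Col25a1*, which encodes the neuronal collagen also known as collagen-like amyloidogenic component precursor, was at 7.13, 6.26, 30.2 and 12.0 CPM in the WT(ND) mice and at 83.4, 83.9, 102 and 105 CPM in the KO(ND) mice. On the LID, *Col25a1* was at 18.6, 23.2, 17.7 and 21.9 CPM in the WT mice and at 269.6, 213, 339.6 and 349 CPM in the KO mice. KO mice were above WT mice on both diets without overlap, and WT(ND) mouse 3 was above the other mice of its group. *Col25a1* was 14.4-fold higher in KO(LID) than in WT(LID) (log2 fold change 3.85 ± 0.42 (SE), adjusted p = 1.28e-05) and 6.73-fold higher in KO(ND) than in WT(ND) (2.75 ± 0.40 (SE), adjusted p = 4.78e-04). Without WT(ND) mouse 3, the log2 fold change on the ND was 3.47 (adjusted p = 2.88e-07). Among the 43 collagen genes *Col25a1* had the highest log2 fold change on the ND, and on the LID only *Col10a1*, described with the remaining genes, was higher. *Col25a1* rose with the LID in KO mice (1.65 ± 0.38 (SE), adjusted p = 0.00691), did not pass the test in WT mice (0.55 ± 0.38 (SE), adjusted p = 0.267), and the difference of these responses was not significant (1.10 ± 0.53 (SE), adjusted p = 0.209). *Col25a1* spans chromosome 3 from 130180845 to 130599883 (+ strand) in mm10. The 250 bases before its start, on the + strand at chr3:130180595-130180844, are shown because of this change, with CCAAT boxes (CCAAT) and GC boxes, on either strand, in capitals.
*Col25a1* upstream: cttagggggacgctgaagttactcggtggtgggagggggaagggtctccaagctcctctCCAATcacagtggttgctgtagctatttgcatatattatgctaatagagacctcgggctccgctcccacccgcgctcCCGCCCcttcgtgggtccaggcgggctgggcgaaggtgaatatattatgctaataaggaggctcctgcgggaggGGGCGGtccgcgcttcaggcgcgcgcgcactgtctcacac
CCAAT on either strand occurred in 37.4% of all promoter windows of 300 bases, and no TGGGGGGT was present in the 250 bases shown.

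*Col13a1*, whose product is a transmembrane collagen of cell adhesion sites and the neuromuscular junction, was at 24.0, 21.9, 32.1 and 27.0 CPM in the WT(ND) mice and at 34.6, 42.5, 36.6 and 32.7 CPM in the KO(ND) mice. On the LID, *Col13a1* was at 83.8, 80.7, 87.0 and 84.5 CPM in the WT mice and at 38.9, 45.0, 43.6 and 41.1 CPM in the KO mice. The 4 WT(LID) mice were all at or above 80.7 CPM and the 12 others at or below 45.0 CPM. *Col13a1* rose in WT mice on the LID (1.68 ± 0.11 (SE), adjusted p = 3.17e-08), did not pass the test in KO mice (0.20 ± 0.11 (SE), adjusted p = 0.172) and was lower in KO(LID) than in WT(LID) (-0.995 ± 0.11 (SE), adjusted p = 6.01e-06). On the ND it was higher in KO mice (0.48 ± 0.11 (SE), adjusted p = 0.00571). The interaction was -1.48 ± 0.15 (SE), adjusted p = 1.69e-05, the lowest adjusted p of any collagen gene in that test. *Col23a1* was at 6.12 to 7.48 CPM in WT(ND) and 2.44 to 4.15 CPM in WT(LID) and fell in WT mice on the LID (-1.16 ± 0.28 (SE), adjusted p = 0.00361). Its fall in KO mice (-0.88, adjusted p = 0.0316) was lost without KO(ND) mouse 1 or 2 or KO(LID) mouse 2, 3 or 4, with an adjusted p of up to 0.0841. *Col17a1*, the collagen of epithelial hemidesmosomes, was at 0.115 to 1.62 CPM and passed no test.

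Both multiplexin genes rose in WT mice on the LID and were lower in KO(LID) than in WT(LID), with medians of 1.19 and -1.14. *Col18a1*, the source of endostatin, was at 202, 149, 98.3 and 191 CPM in the WT(ND) mice and at 82.3, 101, 98.7 and 64.0 CPM in the KO(ND) mice. On the LID, *Col18a1* was at 530.1, 586, 601 and 603 CPM in the WT mice and at 159, 197, 215 and 162 CPM in the KO mice. The lowest WT(LID) mouse was far above the highest of the 12 others. *Col18a1* was 3.16-fold lower in KO(LID) than in WT(LID) (-1.66 ± 0.20 (SE), adjusted p = 1.60e-05) and also lower in KO(ND) than in WT(ND) (-0.89 ± 0.19 (SE), adjusted p = 0.00538), where WT(ND) mouse 3 lay within the range of the KO mice. It rose with the LID in WT (1.86 ± 0.20 (SE), adjusted p = 3.80e-06) and KO mice (1.08 ± 0.19 (SE), adjusted p = 0.00103), and the interaction did not pass the test (-0.77 ± 0.27 (SE), adjusted p = 0.0789). *Col15a1*, whose product lies between basement membranes and fibrils, was at 99.6 to 119.8 CPM in WT(ND), 92.8 to 157 CPM in KO(ND), 142 to 176 CPM in WT(LID) and 84.4 to 122 CPM in KO(LID). The log2 fold change of *Col15a1* was -0.63 ± 0.16 (SE), adjusted p = 0.00631 between the LID groups and 0.52 ± 0.16 (SE), adjusted p = 0.0136 with the diet in WT mice.

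The 6 remaining genes belong to the short-chain, anchoring and other collagens. *Col8a1*, a short-chain collagen of vessel walls and subendothelial matrix, was at 21.5, 21.1, 27.4 and 23.6 CPM in the WT(ND) mice and at 16.2, 18.4, 19.5 and 12.3 CPM in the KO(ND) mice. On the LID, *Col8a1* was at 54.4, 63.1, 58.0 and 56.5 CPM in the WT mice and at 13.2, 15.6, 19.9 and 9.21 CPM in the KO mice. The LID groups were far apart, and *Col8a1* was lower in KO(LID) than in WT(LID) (log2 fold change -2.002 ± 0.19 (SE), adjusted p = 2.38e-06), the lowest log2 fold change of the 43 collagen genes in this comparison. *Col8a1* rose in WT mice on the LID (1.31 ± 0.19 (SE), adjusted p = 5.98e-05), did not pass the test in KO mice (-0.20 ± 0.19 (SE), adjusted p = 0.461) and had an interaction of -1.51 ± 0.26 (SE), adjusted p = 0.00167. *Col7a1*, the collagen of the anchoring fibrils under stratified epithelia, was at 15.5, 11.9, 12.5 and 10.6 CPM in the WT(ND) mice and at 10.2, 14.4, 16.1 and 13.0 CPM in the KO(ND) mice. On the LID, *Col7a1* was at 16.9, 17.7, 15.5 and 10.8 CPM in the WT mice and at 43.4, 36.2, 42.5 and 45.6 CPM in the KO mice. Only the KO(LID) mice stood out, and the lowest of them was far above every other mouse. *Col7a1* was 2.75-fold higher in KO(LID) than in WT(LID) (1.46 ± 0.17 (SE), adjusted p = 1.03e-05), rose in KO mice on the LID (1.63 ± 0.17 (SE), adjusted p = 1.02e-05) and did not pass the test in WT mice (0.27 ± 0.16 (SE), adjusted p = 0.2), with an interaction of 1.36 ± 0.23 (SE), adjusted p = 0.00126. *Col26a1* fell in WT mice on the LID (-1.08, adjusted p = 0.00482), and *Col8a2* and *Col28a1* passed no test.

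*Col10a1*, the collagen of hypertrophic cartilage, was higher in KO(LID) than in WT(LID) (4.49 ± 1.33 (SE), adjusted p = 0.02) and than in KO(ND) (3.92 ± 1.31 (SE), adjusted p = 0.0408). Its values in KO(LID) were 9.32, 0.0813, 0.111 and 0.176 CPM, and in the other 3 groups it was at 0.0600 to 0.321 CPM. The calls rest on mouse 1, without which the log2 fold changes were 0.19 (adjusted p = 0.832) and -0.38 (adjusted p = 0.627). The call between the LID groups was also lost without WT(LID) mouse 3 (adjusted p = 0.0552) or 4 (adjusted p = 0.0574). The call between the KO groups was lost in 13 of the 16 fits with 1 mouse left out, among them those without any of the 12 mice of the other 3 groups. A block for the replicate number removed both calls (adjusted p = 0.141 between the LID groups and 0.302 between the KO groups). In KO(LID) mouse 1, 5 of 7 cartilage markers were above every other mouse, *Acan* at 4.26 CPM (at most 2.94 CPM elsewhere), *Comp* at 3.74 CPM (at most 2.58 CPM), *Ucma* at 0.881 CPM (at most 0.560 CPM), *Matn3* at 0.583 CPM (at most 0.0714 CPM) and *Matn1* at 0.505 CPM (at most 0.232 CPM). Their part in the result was not tested.

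**Figure D4:**
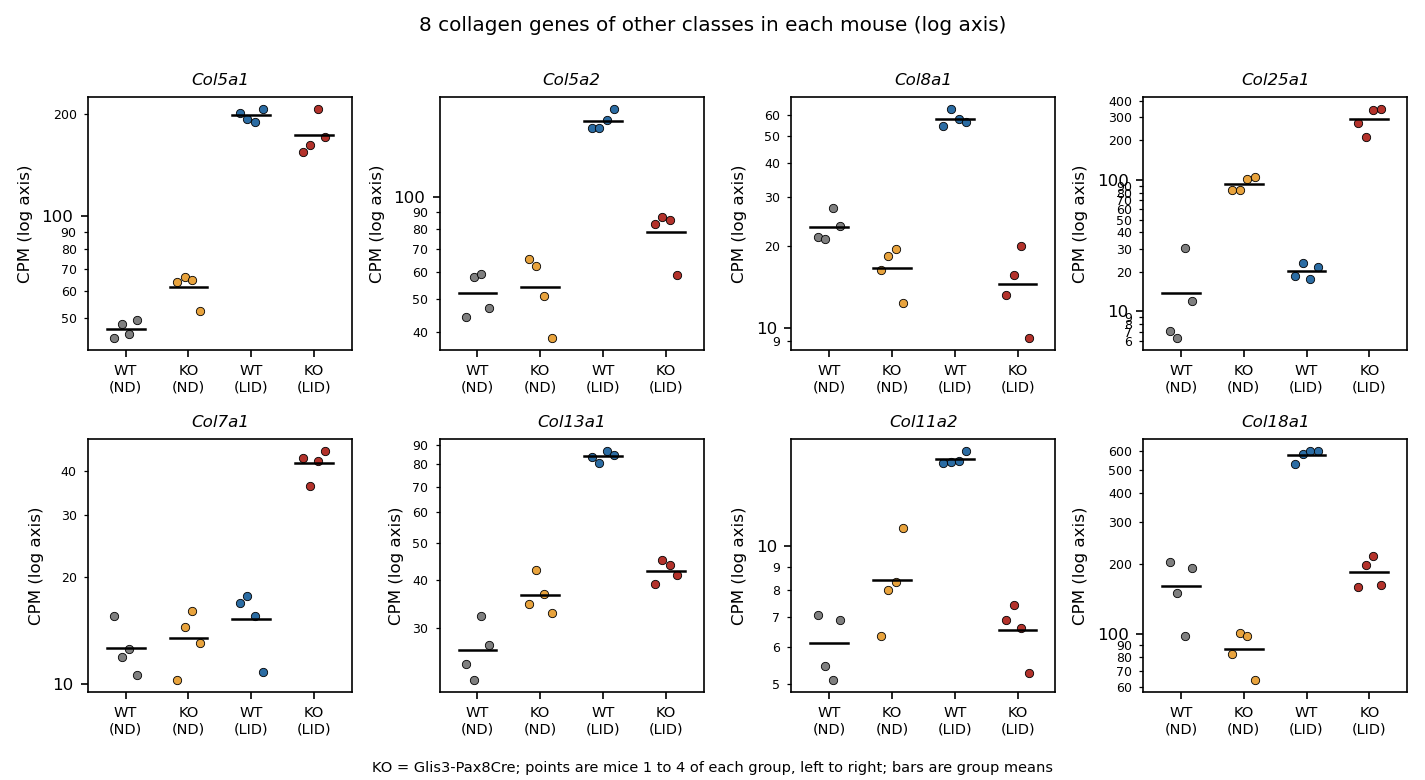
CPM (vertical axes, logarithmic) of 8 collagen genes in each mouse, with bars at the group means. *Col5a1* overlaps between the LID groups, *Col5a2*, *Col8a1*, *Col13a1*, *Col11a2* and *Col18a1* are highest in WT(LID) mice, *Col25a1* is higher in KO than in WT mice on both diets, and *Col7a1* is high in KO(LID) mice.

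**Figure D5:**
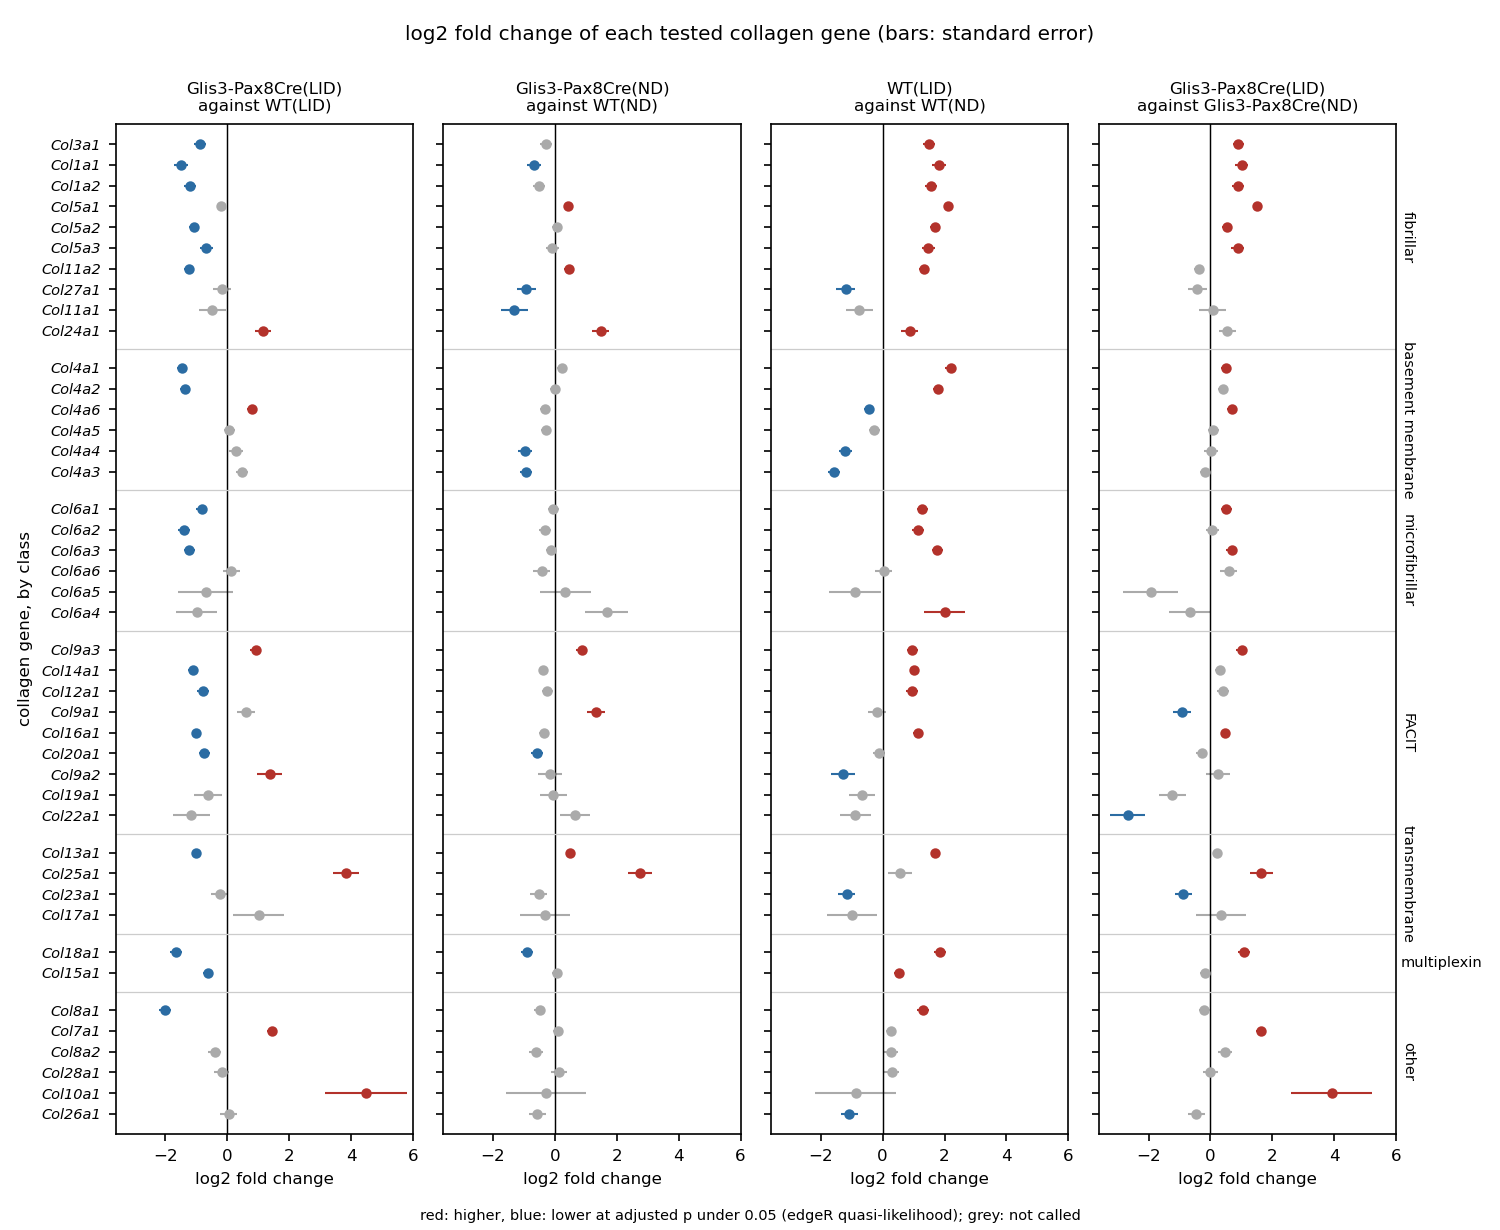
log2 fold changes (horizontal axes) of the 43 tested collagen genes in the 4 pairwise comparisons, with bars of 1 SE, grouped by class; red and blue points were called higher and lower and grey points were not called. In KO(LID) against WT(LID), 19 points are blue and 7 red, and in WT(LID) against WT(ND) 22 are red and 7 blue. Of the red points between the LID groups, *Col9a2* and *Col10a1* were not called without KO(LID) mouse 1.

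Collagen chains assemble with partners, so the ratio of 2 chains of a type was compared per mouse, which does not depend on the scaling of libraries. There were 10 ratios in 4 comparisons, 40 tests in all. The smallest p that an exact permutation test of 4 against 4 mice allows is 0.0286 (two-sided), which 22 of the 40 tests reached, and after Benjamini-Hochberg adjustment over the 40 it becomes 0.0519, so none passed 0.05. Per kb, the level of *Col5a1* over that of *Col5a2* was 0.852 to 1.18 in WT(ND), 1.11 to 1.55 in KO(ND), 1.28 to 1.44 in WT(LID) and 2.11 to 3.29 in KO(LID). The KO(LID) mice did not overlap any other group. Over *Col6a2*, *Col6a1* was at 0.944 to 1.18 in WT(LID) and 1.51 to 1.66 in KO(LID). Over *Col4a6*, *Col4a5* was at 0.847 to 0.907 in WT(LID) and 0.4998 to 0.530 in KO(LID). Both ratios separated the LID groups with no overlap. *Col8a2*, the partner of *Col8a1*, was at 2.85 to 4.09 CPM in WT(LID) and 1.65 to 3.20 CPM in KO(LID). The ratio of *Col8a1* to *Col8a2* was 7.89 to 10.9 in WT(LID) and 2.36 to 3.75 in KO(LID). The ratio of *Col4a1* to *Col4a2* was 1.40 to 1.51 in WT(LID) and 1.27 to 1.42 in KO(LID), and 1.05 to 1.16 in WT(ND). For this head-to-head pair, the difference of the LID groups in log2 ratio was -0.093 (exact permutation p = 0.0571, adjusted p = 0.0879), against 0.90 for *Col5a1* to *Col5a2* and -1.62 for *Col8a1* to *Col8a2*. The head-to-head pair *Col4a3* to *Col4a4* was at 0.530 to 0.570 in WT(LID) and 0.607 to 0.656 in KO(LID), without overlap (difference 0.20 in log2 ratio, at the smallest p). *Col1a1* to *Col1a2* (-0.31) and *Col6a3* to *Col6a1* (-0.41) also reached the smallest p between the LID groups. The ratio of *Col11a1* to *Col11a2* was 0.317 to 0.529 in WT(ND), 0.0786 to 0.182 in KO(ND), 0.0879 to 0.134 in WT(LID) and 0.0889 to 0.422 in KO(LID), whose highest value was that of mouse 1.

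Collagen chains are hydroxylated, folded, exported, trimmed and crosslinked by a set of enzymes and chaperones, and a list of 46 such genes and of collagen receptors was examined beside the chains. Of the 43 tested, 26 rose and 2 fell in WT(LID) against WT(ND) (median log2 fold change 0.64), against 20.9% and 20.8% of all genes. In KO(LID) against WT(LID), 5 were higher and 21 lower (median -0.36), against 14.9% and 15.4% of all genes, so the share that was higher did not exceed the background. On the ND, 5 were higher and 6 lower in KO mice, against 10.3% and 9.25% of all genes, which is near the background. In KO mice on the LID, 21 rose and 3 fell (median 0.43), against 13.1% and 12.3%. The interaction was negative for 10 and positive for none (median -0.30), against 7.41% and 4.43%. All 5 crosslinking genes of the lysyl oxidase family were lower in KO(LID) than in WT(LID). The log2 fold change was -1.23 ± 0.28 (SE), adjusted p = 0.00388 for *Lox*, -1.24 ± 0.16 (SE), adjusted p = 2.60e-05 for *Loxl2* and -2.49 ± 0.33 (SE), adjusted p = 6.16e-05 for *Loxl4*. *Loxl4* was also lower on the ND (-2.27 ± 0.34 (SE), adjusted p = 5.01e-04). *Serpinh1*, which encodes the collagen chaperone HSP47, was lower as well (log2 fold change -0.98 ± 0.17 (SE), adjusted p = 4.92e-04), and so was *Adamts2*, the gene of a procollagen N-proteinase (-1.17 ± 0.18 (SE), adjusted p = 1.34e-04). Among the receptors, 6 were lower and none higher between the LID groups. *Itga2*, the α chain of a collagen-binding integrin, rose in WT mice on the LID (adjusted p = 3.05e-08) and was lower in KO(LID) than in WT(LID) (log2 fold change -3.78 ± 0.25 (SE), adjusted p = 6.67e-08), with an interaction of -3.78 ± 0.34 (SE), adjusted p = 6.22e-06. The 5 genes that were higher are *P4hb* (0.41), *Ppib* (0.66), *P3h4* (0.46), *Plod2* (0.52) and *Mia2* (0.34), which act in the endoplasmic reticulum on hydroxylation, folding and export. These steps were split, as others of their genes were lower. Beside *Serpinh1* these were *P4ha2* (-0.63), *P4ha3* (-1.86), *P3h3* (-0.75), *Colgalt2* (-1.48) and *Creb3l1* (-0.99). *P4hb* and *Ppib* also serve many proteins that are not collagens.

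Markers of other cell types moved between the same groups. The shares of all genes called in each comparison, given above, are the background of the marker counts too. Summed endothelial markers (6 genes) were at 501 to 611 CPM in WT(ND), 625 to 874 CPM in KO(ND), 1294 to 1453 CPM in WT(LID) and 581 to 745 CPM in KO(LID), and 5 of the 6 were lower in KO(LID) than in WT(LID), among them *Pecam1* (log2 fold change -1.57 ± 0.13 (SE), adjusted p = 3.24e-07). Smooth muscle markers (4 genes) were at 73.3 to 136 CPM, 77.8 to 110.4 CPM, 314 to 434 CPM and 83.9 to 127 CPM in these groups in turn, and 4 of 4 were lower in KO(LID). On the ND, 2 of the 6 endothelial markers were higher in KO mice, and none of the smooth muscle markers passed the test. Pericyte markers (5 genes) were at 741 to 1093 CPM in WT(LID) and 531 to 701 CPM in KO(LID), with 2 of 5 lower. Fibroblast markers (6 genes) were at 276 to 423 CPM in WT(LID) and 200.03 to 334 CPM in KO(LID), which overlap, with 2 of 6 lower, and at 364 to 571 CPM in WT(ND), and with the LID in WT mice 1 of the 6 rose and 2 fell. Cartilage markers (7 genes) were at 16.3 to 22.5 CPM in WT(LID) and 44.4 to 69.3 CPM in KO(LID), and of the 5 tested *Hapln1* alone passed (3.20 ± 0.36 (SE), adjusted p = 1.29e-05). C cell markers (3 genes) were at 2526 to 4040 CPM in WT(ND), 1191 to 2392 CPM in KO(ND), 1338 to 1832 CPM in WT(LID) and 1309 to 2031 CPM in KO(LID), and WT(ND) mice were above all others. Of the 3, 2 were lower and 1 higher in KO(ND) than in WT(ND), and 2 fell and 1 rose with the LID in WT mice. Parathyroid markers (3 genes) were at 3476 to 6004 CPM, 3289 to 5179 CPM, 858 to 1676 CPM and 225 to 2099 CPM in the 4 groups in turn, and 3 of 3 fell with the LID in each genotype. Summed follicular markers (7 genes, with *Tg* among them) were at 203357 to 306886 CPM, 125686 to 185794 CPM, 218166 to 329233 CPM and 97846 to 164725 CPM, lower in KO than in WT mice on each diet without overlap. Most of this sum is *Tg*, so it does not describe the 7 genes as a set. Of the 7, 4 were higher and 1 lower in KO(LID) than in WT(LID) (median log2 fold change 0.57), and on the ND the median was 0.35. Macrophage markers (5 genes) were at 91.2 to 139 CPM in WT(ND) and 149.8 to 185 CPM in KO(ND), with 5 of 5 higher in the latter. Adipocyte markers (4 genes) were at 201 to 385 CPM in WT(ND) and 134 to 176 CPM in WT(LID), with 3 of 4 lower in the latter. Thymocyte markers were at 2338 CPM in KO(ND) mouse 4 and above 100 CPM in 1 mouse of each other group. Without these 4 mice, 7 collagen genes were higher and 17 lower in KO(LID) than in WT(LID), and 20 rose and 6 fell in WT mice on the LID, and on the ND 6 were higher and 4, in place of 7, lower in KO mice. Of all genes tested, 6.88% were then higher and 6.06% lower on the ND, in place of 10.3% and 9.25%. Between the LID groups, 12.02% of all genes were then higher and 14.02% lower. With the LID in WT mice, 20.65% of all genes then rose and 20.37% fell. Skeletal muscle markers (6 genes) were at 0.925 to 359 CPM, 0.739 to 1298 CPM, 0.847 to 985 CPM and 1.60 to 789 CPM in the 4 groups in turn, and none passed a test. Squamous epithelium markers (4 genes) were at 21.5 to 94.4 CPM, 18.8 to 103 CPM, 28.4 to 32.6 CPM and 13.0 to 26.4 CPM. Schwann markers (4 genes) were at 23.1 to 40.9 CPM, 19.1 to 30.9 CPM, 20.6 to 27.9 CPM and 24.0 to 25.6 CPM. No marker was at 0 in all mice of a group. The part of these cell types in the collagen results was not tested, and none of the collagen genes can be assigned to a cell type from whole glands.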

How the data were processed

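Thyroid RNA from 16 mice was sequenced as paired ends on a NextSeq or NovaSeq instrument, which of them for which library not given in the sources used here. The authors removed pairs whose ends did not both average more than 20 in base quality, aligned the remainder (STAR 2.5, mm10) and deposited counts per RefSeq gene model from featureCounts (Subread 1.5.0-p1), counted without strand. Without strand, reads of overlapping genes on opposite strands cannot be told apart, which touches the 22 bases shared by *Col4a1* and *Col4a2*. Read pairs are not counted with molecular identifiers.

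From these counts, 16630 of 25611 genes passed the edgeR filterByExpr filter. TMM-scaled counts were fitted for all 16 mice with 1 mean per group by glmQLFit and tested by glmQLFTest (edgeR 4.0.16, R 4.3.3), with Benjamini-Hochberg adjustment over all genes tested and a threshold of 0.05. The 43 collagen genes that passed were sorted into 6 classes and the others. CPM use the same scaling. Ratios of partner chains were compared on the log2 scale after adding 0.5 counts, by two-sided exact permutation tests. No pair of libraries of the same group agreed within sampling noise (chi-square over degrees of freedom of at least 33.2 in 24 pairs). Pairs across groups were not checked. Replicate numbers come from the sample titles. Samples of the same number deviated together in the 2 *Glis3*-Pax8Cre groups (correlations of 0.21 to 0.65, 3 of 4 highest with their own number) and not elsewhere (-0.52 to 0.14), with nothing in the labels that says what a number shares.

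The collagen genes, classes and gene lists were chosen with earlier results of these data known. Per-mouse values or group ranges were given for the 2 genes of each class with the highest CPM per kb, for the called genes with the largest changes in each comparison (6 in each direction between the LID groups and 3 elsewhere, mean of at least 1 CPM), for those called in the interaction and for partner chains; *Col2a1*, *Col6a4*, *Col10a1*, *Col20a1* and *Col22a1* were added after their values were seen. Alternatives were RLE scaling, library size alone, *Tg* left out, DESeq2 1.42.0, other filters, 8 mice alone, the replicate number as a block, each mouse left out, and adjusted p under 0.01 with a fold change over 2. Leaving out the 4 libraries rich in thymocyte markers, or the deepest and the shallowest library, was chosen after seeing the data. The test was tried on simulated counts.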

Additional observations from a re-analysis of the deposited data

Results flagged for a closer look

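Among 124 groups of 4 mice (31 collagen genes in 4 groups), 5 held a mouse far from the others of its group, where chance flags about 1 in 20. *Col4a2* was at 397 CPM in WT(ND) mouse 2 and at 456.0 to 457 CPM in the others. *Col5a1* was at 52.5 CPM in *Glis3*-Pax8Cre(ND) mouse 4, against 64.0 to 65.9 CPM in the others. *Col5a2* was at 58.8 CPM in *Glis3*-Pax8Cre(LID) mouse 4, against 83.2 to 87.3 CPM. *Col9a2* was at 1.19 CPM in *Glis3*-Pax8Cre(ND) mouse 1, the shallowest library, against 0.702 to 0.785 CPM. *Col11a1* was at 5.38 CPM in *Glis3*-Pax8Cre(LID) mouse 1, against 0.861 to 1.46 CPM, and this is the mouse with the high counts of *Col2a1* and *Col10a1*.

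For 15 collagen genes the response to the LID differed between the genotypes by the interaction term of the fit. It was negative, that is, the response was lower in *Glis3*-Pax8Cre than in WT mice, for *Col4a1* (-1.70), *Col11a2* (-1.70), *Col8a1* (-1.51), *Col13a1* (-1.48), *Col4a2* (-1.39), *Col5a2* (-1.14), *Col6a3* (-1.09), *Col6a2* (-1.07), *Col14a1* (-0.73), *Col16a1* (-0.65) and *Col5a1* (-0.60). It was positive for *Col4a3* (1.41), *Col7a1* (1.36), *Col4a4* (1.23) and *Col4a6* (1.12).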

How the results depend on the processing

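Of 95 results for single collagen genes, 69 kept their direction and side of the threshold under the alternatives in scaling, tool, filter, block and mice left in, and DESeq2 changed none of the 95. Among the other genes and comparisons, DESeq2 added 8 calls, *Col1a2* and *Col8a2* on the ND, *Col19a1* with the LID in *Glis3*-Pax8Cre mice, and *Col6a1*, *Col6a4*, *Col9a2*, *Col15a1* and *Col18a1* in the interaction (adjusted p of 0.0216 to 0.0474). With 1 mouse left out in turn, the counts of collagen genes called higher and lower ranged from 5 to 8 and 18 to 20 in *Glis3*-Pax8Cre(LID) against WT(LID), from 6 to 7 and 3 to 8 in *Glis3*-Pax8Cre(ND) against WT(ND), from 21 to 23 and 5 to 8 in WT(LID) against WT(ND), from 11 to 18 and 1 to 3 in *Glis3*-Pax8Cre(LID) against *Glis3*-Pax8Cre(ND), and from 4 to 5 and 9 to 17 in the interaction. The 7 lower calls on the ND became 3 without WT(ND) mouse 1, 2 or 4, *Glis3*-Pax8Cre(ND) mouse 3 or WT(LID) mouse 2, and 4 without WT(LID) mouse 1, 3 or 4. The 3 lower calls with the LID in *Glis3*-Pax8Cre mice became 1 without *Glis3*-Pax8Cre(ND) mouse 2 or *Glis3*-Pax8Cre(LID) mouse 2 or 4, and the 11 negative interactions became 17 without *Glis3*-Pax8Cre(ND) mouse 4.

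With the stricter thresholds of the study, applied to counts of calls and not to single genes (0.01 for the adjusted p and a change of more than 2 times), 3 genes were higher and 12 lower in *Glis3*-Pax8Cre(LID) against WT(LID), 3 higher and 0 lower on the ND, 6 higher and 1 lower with the LID in *Glis3*-Pax8Cre mice, and 7 had a negative interaction. Among the positive interactions, those of *Col4a3*, *Col7a1* and *Col4a6* met both limits. Counts for WT(LID) against WT(ND) at these thresholds are not given here. The share of all genes was not computed at these thresholds, so the counts stand without a background. The 7 lower calls on the ND were 3 with library size alone, 3 with no filter, 3 with only the 8 mice of the comparison, 4 without the thymocyte-rich libraries and 2 without the deepest and the shallowest library. Of all genes, 6.06% were lower on the ND without the thymocyte-rich libraries, against 9.25% with all mice. Without the deepest and the shallowest library that share was 5.46%, so the fall in calls was not particular to collagen genes. The 3 lower calls with the LID in *Glis3*-Pax8Cre mice were 5 with library size alone and 1 with only the 8 mice or without the thymocyte-rich libraries. Without the latter, 10.5% of all genes fell in this comparison, against 12.3% with all mice. The cause was not tested. With at least 10 counts in every mouse, which leaves out low genes, 5 of 35 class medians moved, among them FACIT in WT mice on the LID (0.95) and transmembrane between the LID groups (-0.25). Library size alone shifted the median of all genes by 0.15, 0.12, -0.16 and -0.13 in the 4 pairwise comparisons. The small difference of *Col4a5* between the LID groups ranged from -0.026 (without *Glis3*-Pax8Cre(LID) mouse 3) to 0.17 with 1 mouse left out. With the replicate number as a block, 15 genes rose and 3 fell with the LID in *Glis3*-Pax8Cre mice, and 15 and 2 in a fit of these 8 mice alone. The block lost 6 calls, *Col11a2* (adjusted p = 0.0765) and *Col20a1* (0.0591) on the ND, *Col16a1* in the interaction (0.0574), *Col4a6* in WT mice (0.0579), and *Col10a1* between the LID groups (0.141) and in *Glis3*-Pax8Cre mice (0.302). It added 5, *Col8a1* and *Col14a1* on the ND and *Col6a1*, *Col6a4* and *Col15a1* in the interaction. Genes with few counts (*Col6a4*, *Col10a1*, *Col22a1*) are limited by depth in the shallowest library.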
